A study of Mus musculus with 6 samples.

Results

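The cytosolic ribosome is built from ribosomal RNAs and a large set of ribosomal proteins, and the genes of these proteins are described here in RNA sequencing of mouse brain samples, labelled as microglia (the brain's resident immune cells), after vehicle or trimethylamine N-oxide (TMAO). Members were taken by gene name (the Rpl and Rps symbols, Rpsa, the stalk genes and Fau), leaving out symbols marked as pseudogenes and the S6 kinases. The rule gave 83 genes of 36758 in the deposited table, 33 with small-subunit and 50 with large-subunit names. Of these, 80 had at least 1 FPKM (fragments per length of gene and per size of library) in at least 3 of the 6 libraries, as did 14206 genes in all. Rpl3l, Rpl39l and Rpl32l did not reach that level. The filter had no bearing on the other members, since their lowest single value was 3.55 FPKM. Rps3a1 and Rack1 also encode proteins of the cytosolic ribosome, but their symbols do not match the name rule.

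The vehicle group held 3 libraries from C57BL/6J mice given water for 16 weeks, and the TMAO group held 3 libraries from C57BL/6J mice that received TMAO at 0.12% daily over a period of 16 weeks. TMAO is a metabolite that the liver makes from a product of gut bacteria. The mice were 6 months old per the series' design text, and the labels give no other treatment or allele in either group. The labels do not say whether a library came from 1 animal or from pooled animals, so a p-value here measures the spread between libraries, which may be technical.

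Ribosomal protein mRNAs are among the most abundant messages of a cell, and every ribosome takes up nearly all of the proteins in equal number. Their transcripts start with a C followed by a run of pyrimidines, the 5′ terminal oligopyrimidine (TOP) element, through which the mTOR kinase and the protein Larp1 set how strongly they are translated. Mammalian genomes also carry very many processed pseudogenes of these genes, made by reverse transcription of their mRNAs, and short reads of such copies are hard to assign.

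The start sites of members described further on are shown as examples of the TOP element, each with 12 bases before and 18 bases from the RefSeq start (GRCm38.p6) and with the pyrimidine run from the start in capitals. They lie at chr19:6057935-6057964 (Fau, plus strand), chr17:33955648-33955677 (Rps18, minus strand), chr4:86857350-86857379 (Rps6, minus strand), chr7:141447639-141447668 (Rplp2, plus strand), chr3:90213631-90213660 (Rps27, minus strand) and chr9:120571505-120571534 (Rpl14, plus strand).
Fau: gcgcccccacttCTTCCTCTTTCTTgactc
Rps18: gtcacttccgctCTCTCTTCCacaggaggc
Rps6: cggaagtcgggcCTCTTTTTCgtgacgcct
Rplp2: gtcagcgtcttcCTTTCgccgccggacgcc
Rps27: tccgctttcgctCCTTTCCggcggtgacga
Rpl14: cgggccctctctCTTCTCgctgagcgccgc
A RefSeq promoter (250 bases before and 50 bases after a start) was found for 58 of the 80 members. A C followed by at least 4 pyrimidines stood exactly at an annotated start in 14 of the 58 (24.1%), against 3.01% of 27025 genes with a promoter. A run of 8 pyrimidines within 25 bases on either side of the start was found in 32 of the 58 (55.2%), against 22.3% of all genes. The sequence CCGGAAGT, a core of ETS family binding sites, stood on either strand in 12 of the 58 (20.7%, against 4.31%), and AAGATGGC, a core of YY1 sites, in 6 (10.3%, against 3.19%). The sequence TATAAA was in 0 of the 58 within 40 bases before the start, on the strand of the gene, against 2.78% of all genes. A match describes the letters in the window and is not a measured binding site.

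Rps27 and its relatives are shown because reads of Rps27 are shared with an identical copy while those of its paralog are not. Their coding sequences are given from the first base to base 90 of 252, with capitals where Rps27 (chr3:90212522-90213651, minus strand, GRCm38) and its paralog Rps27l (chr9:66946086-66949516, plus strand) differ.
Rps27: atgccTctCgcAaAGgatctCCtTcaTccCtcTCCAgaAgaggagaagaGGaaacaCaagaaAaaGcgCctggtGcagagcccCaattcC
Rps27l: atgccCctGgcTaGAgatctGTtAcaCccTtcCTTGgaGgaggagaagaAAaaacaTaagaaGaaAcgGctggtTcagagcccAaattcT
The pair differ at 24 of these 90 bases and at 60 of all 252, an identity of 76.19%, so their reads can be told apart. Rps27rt (chr9:114982366-114982739, minus strand) has 0 differences from Rps27 over the whole coding sequence, and reads from within that sequence cannot be told apart.

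Vehicle replicate 1 was unlike the other 5 libraries before any comparison. Its log2 values over tested genes correlated with those of the other libraries at 0.804 to 0.896. Each of the other 5 correlated with its closest library at 0.977 to 0.986. The 10 microglia markers, all 10 measured, summed to 200 to 565 FPKM over the vehicle libraries and 218 to 230 FPKM over the TMAO libraries, so RNA of the labelled cell type was present. Their sum was below that of the neuron markers in every library but vehicle replicate 1. Neuron markers (10 of 10 measured) were also abundant and summed to 406 FPKM in vehicle replicate 1, 935 and 976 FPKM in the other vehicle libraries and 919 to 1088 FPKM in TMAO. Vehicle replicate 1 had 70.8 FPKM of border macrophage markers (7 of 7 measured) against 3.03 to 15.7 FPKM elsewhere, and 96.0 FPKM of fibroblast markers (5 of 5) against 2.99 to 11.6 FPKM. It had 265 FPKM of neutrophil markers (6 of 6) against 15.1 to 79.5 FPKM, and 232 FPKM of endothelial markers (5 of 5) against 44.8 to 107 FPKM. The upper end of each of these ranges was vehicle replicate 2. The TMAO libraries reached only 6.26, 5.61, 33.8 and 55.6 FPKM of border macrophage, fibroblast, neutrophil and endothelial markers. Differences without vehicle replicate 1 thus still hold a vehicle library with more of these markers than any TMAO library. Erythroid markers (5 of 5) ran from 195 to 601 FPKM in vehicle and from 80.7 to 110 FPKM in TMAO, and oligodendrocyte markers (7 of 7) from 740 to 902 and from 378 to 612 FPKM. Astrocyte markers (6 of 6) ran from 597 to 938 and from 603 to 669 FPKM. The neutrophil gene Camp was at 0 in at least 1 library, and no other marker was at 0 in any. The part of these cell types in the results below was not tested, and fewer cells of a type cannot be told apart from less RNA per cell.

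Ribosomal protein mRNA was highest in vehicle replicate 1 and lowest in TMAO replicate 2. The 83 members together held 7715, 5097 and 5410 FPKM in vehicle replicates 1, 2 and 3, and 4737, 4456 and 4979 FPKM in TMAO replicates 1, 2 and 3. As a share of all FPKM this was 2.44%, 1.67% and 1.66% in vehicle and 1.48%, 1.46% and 1.62% in TMAO. With mitochondrially encoded genes left out of the total, the shares were 3.32%, 2.35% and 2.43% in vehicle. In TMAO they were then 2.14%, 2.10% and 2.35%, so TMAO replicate 3 was level with vehicle replicate 2. The gap between vehicle replicate 1 and the other vehicle libraries was thus wider than the gap between those and the TMAO libraries. Of the 80 members, 75 had their highest value in vehicle replicate 1, and 48 had their lowest in TMAO replicate 2.

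**Figure D1:**
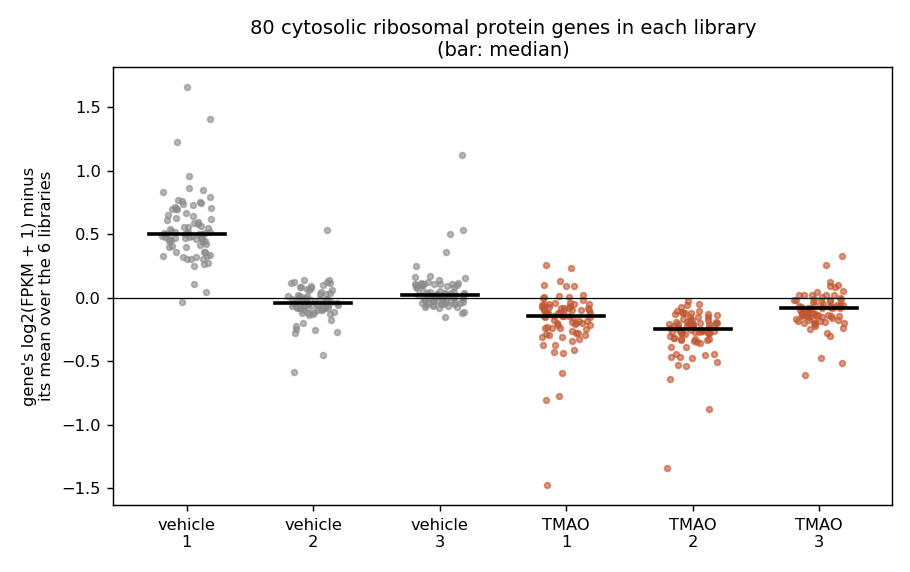
Each of the 80 members in each library, as its log2(FPKM + 1) minus its own mean over the 6 libraries (vertical axis; grey, vehicle; orange, TMAO; bar, median of the members). The medians are 0.50, -0.05 and 0.02 in vehicle and -0.14, -0.25 and -0.08 in TMAO, so vehicle replicate 1 stands well above the rest and the TMAO libraries lie below the other vehicle libraries.

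The comparison of TMAO with vehicle showed small differences in 1 direction. On the log2(FPKM + 1) scale 79 of the 80 members had a lower mean in TMAO, where 53.2% of the 14206 tested genes did, and the median difference was -0.34 against -0.03 over all tested genes. In 42 of the 80 every TMAO library was lower than every vehicle library, a pattern seen in 17.5% of tested genes. In 0 members was every TMAO library higher, a pattern whose share of all tested genes is not given here. No member passed the test. By limma with Benjamini-Hochberg adjustment over all 14206 genes, 0 of 80 members and 0 genes in all (0.0%) passed an adjusted p of 0.05, and adjusted p for the members ran from 0.404 to 0.929. At an unadjusted p under 0.05, 10 members were lower and 0 were higher, where 7.22% of tested genes were lower (1025 of the 1712 at that p). The 10 became 4, 2 and 1 when TMAO replicates 1, 2 and 3 were left out in turn. Shares of all tested genes in those fits are not given here, so these counts have no background beside them. The members share their 6 libraries and moved together, so they do not count as 80 separate observations of the treatment.

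Leaving out vehicle replicate 1 moved the members' median difference to -0.17, against -0.02 over all tested genes. Then 76 of 80 members were lower in TMAO, against 54.6% of tested genes, and every TMAO library was lower than both vehicle libraries in 42 members, against 21.7% of tested genes. At an unadjusted p under 0.05 there were 17 lower members, against 10.2% of tested genes, and limma's smallest adjusted p among the members was 0.167.

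**Figure D2:**
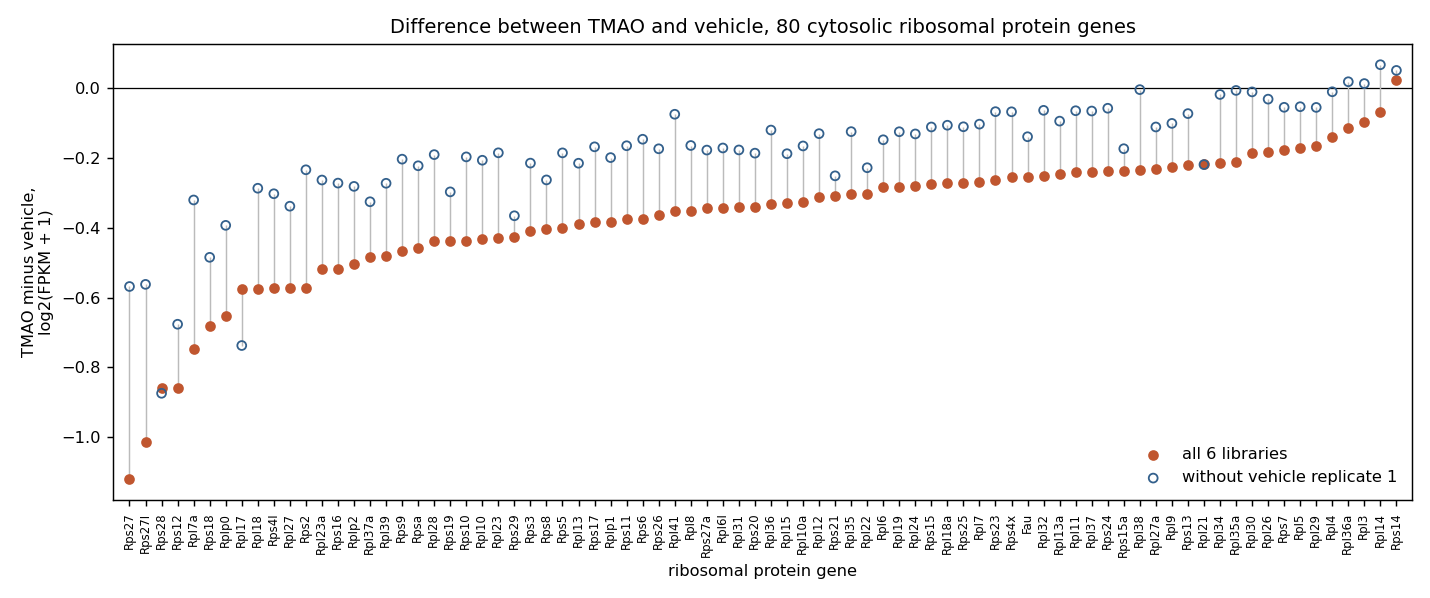
Difference between the TMAO and vehicle means in log2(FPKM + 1) for the 80 members, in order of size (filled, all 6 libraries; open, without vehicle replicate 1). The filled points run from -1.12 for Rps27 to 0.02 for Rps14, and most open points lie nearer to 0.

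The P stalk of the large subunit recruits and activates the GTPase elongation factors, and its 3 genes were lower in every TMAO library than in every vehicle library. Rplp0, the base of the stalk, stood at 235, 142 and 132 FPKM in vehicle and at 101, 102 and 110 FPKM in TMAO. Its log2 difference was -0.65 (SE 0.241; limma unadjusted p = 0.0344, adjusted p = 0.404) and -0.39 without vehicle replicate 1. Rplp1, an acidic protein that dimerises with Rplp2 on that base, was the most abundant member, at 482, 329 and 329 FPKM in vehicle, against 301, 259 and 300.2 FPKM in TMAO. Rplp2 stood at 50.1, 32.4 and 30.1 FPKM in vehicle and at 24.64, 25.03 and 26.79 FPKM in TMAO. The groups did not overlap in either gene, and the log2 differences were -0.38 (SE 0.200) for Rplp1 and -0.50 (SE 0.207) for Rplp2. They were -0.20 and -0.28 without vehicle replicate 1. With 3 libraries against 3, the exact two-sided permutation p of each stalk gene was 0.1, the smallest the design allows. Near-identical copies held 4.03% of the summed FPKM of Rplp0 and its copies and 2.23% for Rplp1, and no such copy of Rplp2 was found. How reads were shared with the copies of Rplp0 and Rplp1 is not known, and these shares may themselves depend on it.

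Among the 31 small-subunit genes without Rps27l and the annotated pseudogene Rps4l, 30 had a lower mean in TMAO. The median log2 difference was -0.38 (or -0.19 leaving out vehicle replicate 1). In 20 of the 31 the groups did not overlap, against 17.5% of all tested genes with every TMAO library lower. Rps18, a protein of the head of the small subunit, stood at 62.4, 40.2 and 41.8 FPKM in vehicle and at 32.66, 31.19 and 23.98 FPKM in TMAO (log2 difference -0.68, SE 0.217). Rps29, a small zinc-binding protein of the head, stood at 52.4, 45.6 and 46.3 FPKM in vehicle and at 40.7, 29.5 and 37.1 FPKM in TMAO (-0.43, SE 0.156). Neither gene had overlapping groups, and without vehicle replicate 1 the differences were -0.48 for Rps18 and -0.37 for Rps29. Copies, described further on, held 30.8% of the sum of Rps18 and its copies. With copies added the groups of Rps18 overlapped (-0.26, and -0.09 without vehicle replicate 1), while those of Rps29 still did not. Rps19, the gene most often mutated in the human anaemia named after Diamond and Blackfan, stood at 22.5, 16.1 and 16.9 FPKM in vehicle and at 14.7, 11.2 and 14.1 FPKM in TMAO (-0.44, SE 0.171). Rps6, the substrate of the S6 kinases, stood at 215, 136 and 131 FPKM in vehicle and at 118, 119 and 124 FPKM in TMAO (-0.38, SE 0.218). In both genes the TMAO libraries lay below every vehicle library, and for Rps6 the difference was -0.15 without vehicle replicate 1. With copies added the groups of Rps19 overlapped (-0.12, and 0.115 without vehicle replicate 1), while those of Rps6 still did not. Rps15, the second most abundant member, stood at 358, 246 and 264 FPKM in vehicle and at 246, 223 and 239 FPKM in TMAO, with groups that touched (-0.27, SE 0.184, and -0.11 without vehicle replicate 1).

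Rps14, whose loss on one copy of a human chromosome marks the 5q- form of myelodysplasia, was the exception in the small subunit. It stood at 84.0, 71.9 and 87.3 FPKM in vehicle and at 87.48, 75.05 and 84.12 FPKM in TMAO. The groups overlapped throughout and the log2 difference was 0.02 (SE 0.139), the only one above 0 among the 80 members, and 0.05 without vehicle replicate 1.

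The 43 large-subunit genes outside the stalk and the annotated pseudogene Rpl6l were all lower on average in TMAO. Their median log2 difference was -0.28 (or -0.12 leaving out vehicle replicate 1). Of the 43, 18 had no overlap, against 17.5% of all tested genes with every TMAO library lower. Rpl27 stood at 62.3, 39.2 and 36.6 FPKM in vehicle and at 28.6, 29.9 and 30.8 FPKM in TMAO (-0.57, SE 0.216). Rpl22, an RNA-binding protein that T cell development also depends on, stood at 31.8, 28.1 and 26.1 FPKM in vehicle and at 23.8, 23.3 and 21.8 FPKM in TMAO (-0.30, SE 0.120). Rpl8, which lies close to the peptidyl transferase centre, stood at 218, 144 and 152 FPKM in vehicle and at 134, 128 and 134 FPKM in TMAO (-0.35, SE 0.191). In these 3 genes the groups did not overlap, and without vehicle replicate 1 the differences were -0.34 for Rpl27, -0.23 for Rpl22 and -0.16 for Rpl8.

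In other large-subunit genes the groups overlapped. Rpl4, whose long loop lines the exit tunnel, stood at 284, 214 and 220.2 FPKM in vehicle and at 212, 208 and 226 FPKM in TMAO (-0.14, SE 0.163, and -0.01 without vehicle replicate 1). Rpl19 stood at 271, 181 and 209 FPKM in vehicle and at 170.0, 177 and 189 FPKM in TMAO (-0.28, SE 0.184, and -0.13 without vehicle replicate 1). Rpl3, near the peptidyl transferase centre, stood at 147, 118 and 116 FPKM in vehicle and at 118, 112 and 123 FPKM in TMAO (-0.10, SE 0.148). Rpl4 and Rpl3 thus lay nearer to 0 than the median member, and Rpl19 at the median of the large-subunit genes. Rpl14 stood at 90.5, 69.1 and 67.3 FPKM in vehicle and at 73.4, 69.5 and 71.4 FPKM in TMAO (-0.07, SE 0.154), and Rpl36a at 33.9, 25.4 and 25.6 FPKM and at 28.7, 23.2 and 25.9 FPKM (-0.11, SE 0.159). Without vehicle replicate 1 the log2 difference was 0.01 for Rpl3, 0.07 for Rpl14 and 0.02 for Rpl36a. Copies, described further on, held 42.6% of the sum of Rpl14 and its copies, and with them added the difference of Rpl14 was -0.32 with every TMAO library lower. Rpl5 and Rpl11, which carry 5S ribosomal RNA and bind the p53 regulator Mdm2 when free of ribosomes, had overlapping groups. Rpl5 stood at 65.4, 51.0 and 51.0 FPKM in vehicle and at 47.2, 47.4 and 52.8 FPKM in TMAO (-0.17, SE 0.147). Rpl11 stood at 57.9, 39.9 and 40.0 FPKM in vehicle and at 40.1, 35.3 and 39.2 FPKM in TMAO (-0.24, SE 0.178). Their differences were -0.05 and -0.07 without vehicle replicate 1.

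**Figure D3:**
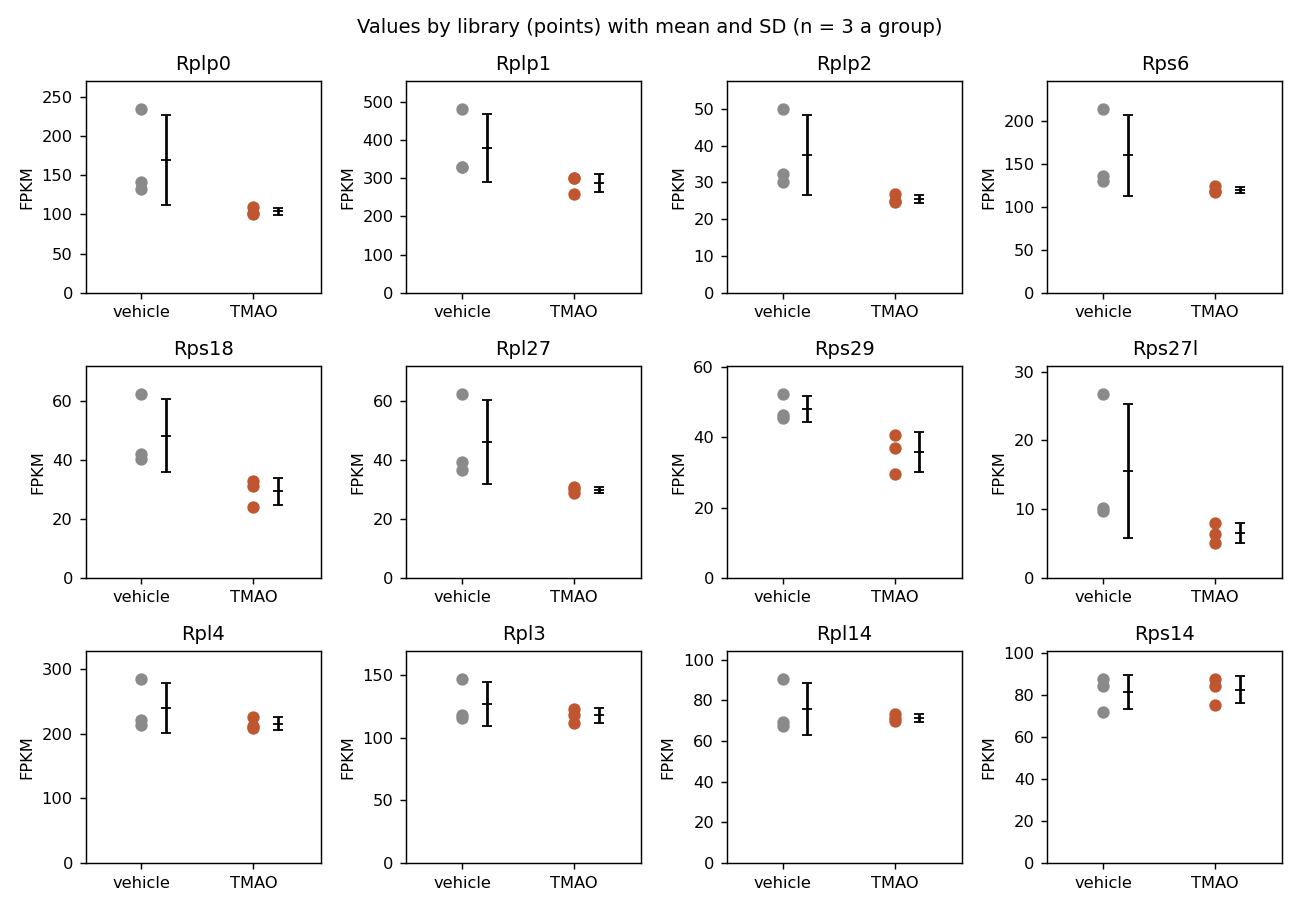
FPKM of 12 members in each library (points, from 0; grey, vehicle; orange, TMAO), with the group mean and SD beside them (n = 3 a group). In the stalk genes, Rps6, Rps18, Rpl27, Rps29 and Rps27l the TMAO points lie below every vehicle point, while in Rpl4, Rpl3, Rpl14 and Rps14 the groups overlap.

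Some ribosomal proteins are made fused to ubiquitin or a ubiquitin-like protein, and Rack1 is a signalling scaffold on the head of the small subunit. Rps27a, fused to ubiquitin, stood at 70.3, 51.6 and 47.3 FPKM in vehicle and at 46.5, 33.6 and 52.9 FPKM in TMAO (-0.34, SE 0.230). Fau, fused to a ubiquitin-like protein, stood at 124, 92.4 and 102 FPKM in vehicle and at 97.1, 77.1 and 91.0 FPKM in TMAO (-0.26, SE 0.168). The groups overlapped in Rps27a and Fau, and without vehicle replicate 1 the differences were -0.18 and -0.14. Rack1 stood at 46.0, 28.2 and 26.3 FPKM in vehicle and at 24.2, 23.5 and 25.4 FPKM in TMAO, without overlap (-0.40, SE 0.222, and -0.16 without vehicle replicate 1).

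Of the 8 paralogs of standard subunits looked for, 5 passed the filter, with means of 8.55 to 25.9 FPKM. All 5 had a lower mean in TMAO, and 3 had no overlap, against 17.5% of all tested genes with every TMAO library lower. Rps27l, a paralog of Rps27 that p53 induces, stood at 26.8, 10.1 and 9.70 FPKM in vehicle and at 5.12, 7.98 and 6.32 FPKM in TMAO. Its groups did not overlap, and the log2 difference was -1.01 (SE 0.395; limma unadjusted p = 0.0419, adjusted p = 0.404) and -0.56 without vehicle replicate 1. No near-identical copy of Rps27l was found. Rpl36al stood at 38.0, 24.8 and 26.2 FPKM in vehicle and at 21.8, 21.7 and 22.7 FPKM in TMAO (-0.38, SE 0.179), and Rpl7l1 at 15.44, 10.53 and 10.26 FPKM and at 9.74, 8.98 and 8.14 FPKM (-0.37, SE 0.174). Neither had overlapping groups, and both were at -0.20 without vehicle replicate 1. Rpl22l1, the paralog of Rpl22, stood at 12.40, 10.77 and 10.51 FPKM in vehicle and at 9.50, 8.65 and 12.1 FPKM in TMAO, with overlap (-0.15, SE 0.147, and -0.08 without vehicle replicate 1). Rps4l, which the annotation types as a processed pseudogene, stood at 15.2, 9.04 and 7.43 FPKM in vehicle and at 5.82, 5.57 and 8.25 FPKM in TMAO (-0.57, SE 0.272, and -0.30 without vehicle replicate 1). Rpl3l, a muscle paralog of Rpl3, stood at 0.124, 0.228 and 0.365 FPKM in vehicle and at 0.204, 0.0928 and 0.341 FPKM in TMAO. Rpl39l, a testis paralog of Rpl39, stood at 0.465, 0.120 and 0 FPKM in vehicle and at 0.0509, 0.245 and 0.275 FPKM in TMAO. Both were below the filter. Rpl32l, annotated as a pseudogene, ranged from 0.461 to 1.18 FPKM, and Rpl21, the member with the lowest mean that passed the filter, from 5.01 to 6.26 FPKM.

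Copies of these genes elsewhere in the genome held a large part of the family's summed FPKM. Of the 78 protein-coding members that passed the filter, 74 had at least 1 annotated copy of at least 95% identity over at least 50% of the coding sequence. There were 534 such copies, 524 of them annotated as pseudogenes, and 197 had at least 1 FPKM in at least 3 libraries. The copies of these 78 members summed to 4155, 3208 and 2845 FPKM in vehicle against 3132, 2724 and 2906 FPKM in TMAO. In 21 of the 78 members the copies held at least 50% of the summed FPKM of member and copies, so the value of the annotated gene was the smaller part. Rpl21 was the extreme, at a mean of 5.70 FPKM itself and 431 FPKM with its 52 copies, which held 98.7% of the sum. FPKM of copies of different length were added as they stand, so the sums are approximate, and nothing in these values shows whether a copy is transcribed or only receives reads of its parent.

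Rps27, the member with the largest difference over all 6 libraries, varied in the opposite direction to its retrogene, which was picked for description after its values were seen. Rps27 stood at 68.9, 19.8 and 22.7 FPKM in vehicle and at 6.91, 14.3 and 26.8 FPKM in TMAO, with overlap (log2 difference -1.12, SE 0.622). It was -0.57 without vehicle replicate 1, behind Rps28 (-0.87), Rpl17 (-0.74) and Rps12 (-0.68). Rps27rt stood at 41.8, 111 and 101 FPKM in vehicle and at 139, 96.9 and 93.7 FPKM in TMAO, so it was lowest where Rps27 was highest and highest where Rps27 was lowest. Rps27 with all its copies gave 113, 133 and 126 FPKM in vehicle, against 148, 113 and 122 FPKM in TMAO, a log2 difference of 0.03.

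Rps28, a protein near the exit of the mRNA channel, ranked first among the members by limma's unadjusted p, with an adjusted p of 0.404. It stood at 9.495, 10.47 and 9.192 FPKM in vehicle and at 3.55, 5.90 and 5.54 FPKM in TMAO, without overlap. Its log2 difference was -0.86 (SE 0.179) and -0.87 without vehicle replicate 1. Copies held 84.0% of the sum, most of it in the processed pseudogene Gm10443 on chromosome 6, whose sequence matches the Rps28 coding sequence at 100% identity. Gm10443 stood at 58.5, 9.76 and 19.5 FPKM in vehicle and at 41.6, 16.4 and 29.6 FPKM in TMAO. The sum of Rps28 and its copies was 85.2, 23.7 and 36.9 FPKM in vehicle, against 56.4, 28.2 and 45.9 FPKM in TMAO, with wide overlap and a log2 difference of -0.01, or 0.48 without vehicle replicate 1.

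Adding copies moved the log2 difference up by more than 0.1 in 14 of the 78 members, Rps27 and Rps28 among them, and down by more than 0.1 in 5, while 59 moved by 0.1 or less. The members named here were picked after their values were seen. Rps12 went from -0.86 to -0.47, with 91.3% of the sum in copies, and Rpl7a from -0.75 to -0.38, with 88.8% in copies. Rpl17 went from -0.58 to -0.07 and Rpl37a from -0.48 to 0.04. Rps18 went from -0.68 to -0.26 and Rps19 from -0.44 to -0.12, with 30.8% and 43.8% of their sums in copies. In the other direction Rpl14 went from -0.07 to -0.32, Rps13 from -0.22 to -0.47, Rpl30 from -0.19 to -0.39, Rps20 from -0.34 to -0.49 and Rpl36a from -0.11 to -0.22. Over the 78 protein-coding members the median log2 difference with copies added was -0.29, and 75 were lower in TMAO. Without vehicle replicate 1 it was -0.14, with 69 lower.

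**Figure D4:**
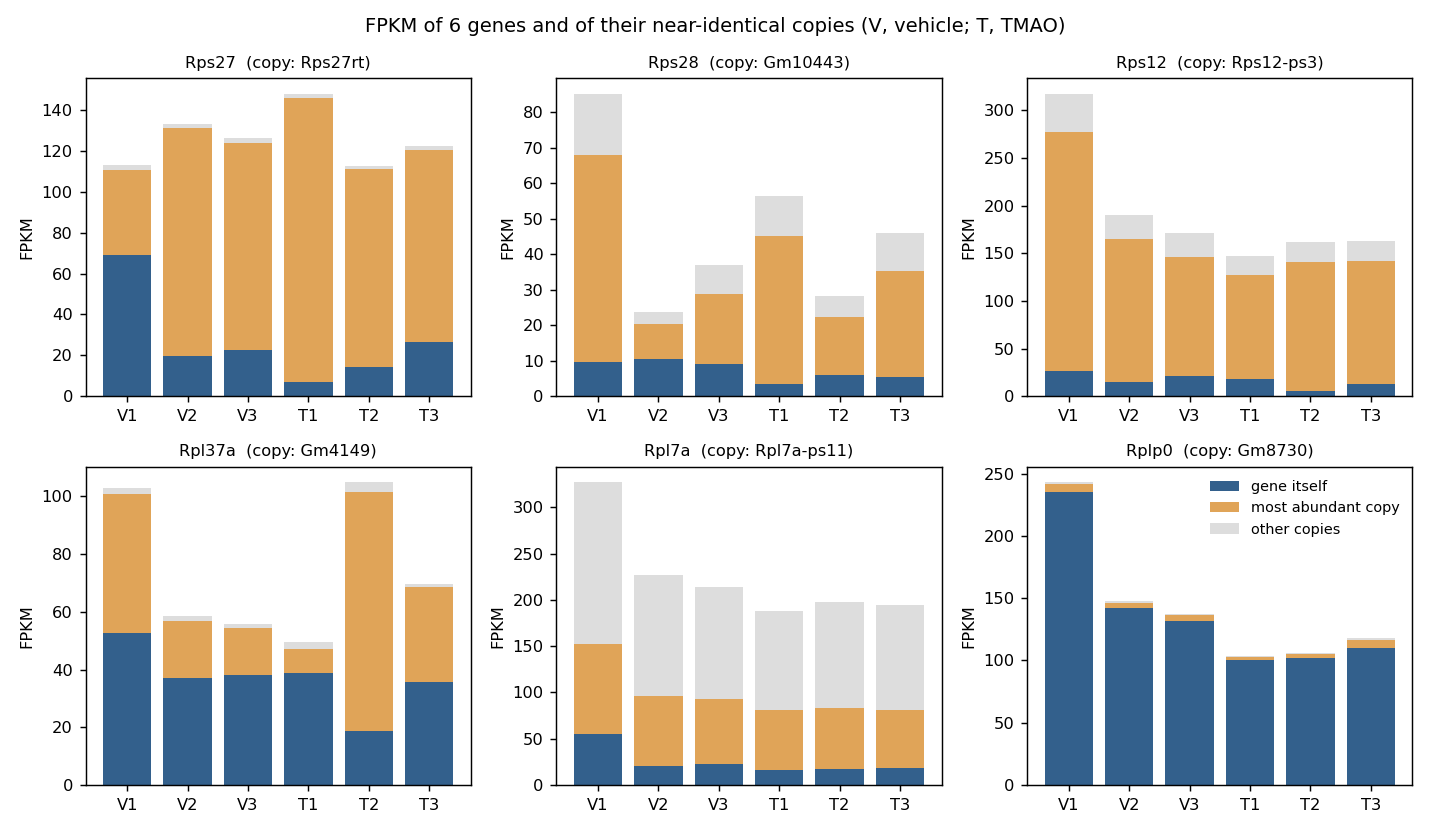
FPKM of 6 members (blue), of the most abundant copy of each (orange) and of its other copies (grey), stacked from 0 for each library (V, vehicle; T, TMAO). In Rps27 the blue and orange parts vary in opposite directions, in Rps28 the blue part is lower in every TMAO library while the heights of the whole bars overlap, and in Rplp0 nearly all of the bar is the gene itself.

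How evenly members varied from library to library differed with their copies. After each library's median member was subtracted, the SD within groups had a median of 0.07 log2 units in the 20 members with copies under 10% of the sum, 0.09 in the 37 members from 10% to under 50%, and 0.19 in the 21 members with at least 50%. The largest was 0.78, for Rps27. Spearman's rho between that SD and the share in copies was 0.43 over the 78 members, which share libraries and annotation. The sets also differed in level, with a median mean FPKM of 97.4, 59.8 and 26.5 in the same order. The parts of copies and of level in this spread cannot be told apart here. The lower level in TMAO was found at a small share of copies too. In the 20 members with copies under 10% of the sum, all 20 were lower in TMAO and the median log2 difference was -0.34. Of these, 13 had groups that did not overlap, against 17.5% of all tested genes with every TMAO library lower. Without vehicle replicate 1 all 20 were still lower, with a median of -0.17. Levels were also more alike with copies added, as the SD of the members' log2 mean FPKM went from 1.14 to 0.968.

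Members were also set side by side by their annotated start. All 14 with a C and at least 4 pyrimidines at the start and all 44 with another start were lower in TMAO, and both medians were -0.32, or -0.18 and -0.16 without vehicle replicate 1. The difference between these sets was not tested, and a start annotated a few bases off hides a TOP element. The groups did not overlap in 7 of the 14 and in 23 of the 44, against 17.5% of all tested genes with every TMAO library lower. The 80 members lie on 20 chromosomes, with at most 14 on any one (chromosome 7).

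Marks of significance in the authors' deposited table put 2 members as lower in TMAO and 0 as higher, where 5.06% of its 36758 genes were marked as lower. The authors' deposited table marks Rps27 (log2 fold -1.22, q-value 0.456) and Rps27l (log2 fold -1.26, q-value 0.180). The authors' deposited table does not mark Rps28, whose q-value of 0.0429 was the lower (log2 fold -0.96).

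Other genes of translation were compared by lists, described by their counts. Of all 14206 tested genes 53.2% were lower in TMAO, 17.5% had every TMAO library lower and 7.22% were lower at an unadjusted p under 0.05. In either direction 1712 tested genes reached that p by limma, 1025 of them lower. The share with every TMAO library higher is not given here, so counts of such genes below have no background beside them. Ribosome biogenesis factors, which process ribosomal RNA and assemble the subunits in the nucleolus, were lower in TMAO in 42 of 45 tested genes, with a median log2 difference of -0.29. Of these 24 had every TMAO library lower and 16 had an unadjusted p under 0.05, against 17.5% and 7.22% of all tested genes. The nucleolar GTPase Gnl3 stood at 10.4, 8.89 and 8.69 FPKM in vehicle and at 6.68, 6.89 and 6.70 FPKM in TMAO (-0.41, SE 0.104). Nhp2, of the particles that pseudouridylate ribosomal RNA, stood at 19.7, 19.3 and 21.6 FPKM and at 15.2, 15.2 and 15.1 FPKM (-0.39, SE 0.099). Mrto4, which holds the place of the stalk protein Rplp0 during assembly, stood at 7.03, 7.04 and 7.79 FPKM and at 5.08, 5.25 and 5.71 FPKM (-0.38, SE 0.099). In these 3 genes the groups did not overlap, and vehicle replicate 1 was not the highest vehicle library for Nhp2 and Mrto4. Without it the differences were -0.34 for Gnl3, -0.41 for Nhp2 and -0.41 for Mrto4.

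Initiation factors were lower in 25 of 28, with a median of -0.29, 16 without overlap (17.5% of all tested genes) and 9 at an unadjusted p under 0.05 (7.22% of all). Eif3b, a core subunit of the eIF3 complex, stood at 39.9, 31.8 and 28.0 FPKM in vehicle and at 19.3, 23.1 and 21.9 FPKM in TMAO (-0.60, SE 0.162). Eif6, which keeps free large subunits from joining, stood at 17.9, 13.4 and 13.3 FPKM and at 10.7, 11.2 and 10.3 FPKM (-0.42, SE 0.140). Eif2s2, the beta subunit of eIF2, stood at 18.4, 11.4 and 10.6 FPKM and at 6.997, 9.195 and 8.085 FPKM (-0.64, SE 0.220). All 3 had groups without overlap, and without vehicle replicate 1 their differences were -0.46, -0.29 and -0.41.

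Complexes that act on nascent chains at the ribosome (signal recognition particle, translocon, nascent chain and ribosome associated complexes) were lower in 19 of 19, with a median of -0.25, 13 without overlap (17.5% of all tested genes) and 5 at an unadjusted p under 0.05 (7.22% of all). Sec61b, of the translocon, stood at 13.4, 6.57 and 6.91 FPKM in vehicle and at 3.96, 4.82 and 5.09 FPKM in TMAO (-0.76, SE 0.265). Hspa14, of the ribosome associated complex, stood at 10.3, 7.47 and 6.95 FPKM and at 5.35, 6.22 and 5.01 FPKM (-0.49, SE 0.165). Neither had overlapping groups, and without vehicle replicate 1 the differences were -0.47 for Sec61b and -0.33 for Hspa14. Elongation factors and other messages reported to carry a TOP element were lower in 18 of 21, with a median of -0.26, 10 without overlap (17.5% of all tested genes) and 2 at an unadjusted p under 0.05, which is near the 7.22% of all. Btf3, of the nascent chain complex and held by both lists, stood at 83.3, 54.6 and 51.0 FPKM in vehicle and at 41.9, 43.0 and 39.3 FPKM in TMAO (-0.56, SE 0.206). Pabpc1, which binds poly(A) tails, stood at 60.5, 33.6 and 28.8 FPKM and at 24.03, 26.67 and 26.28 FPKM (-0.58, SE 0.277). The filament gene Vim stood at 143, 36.5 and 21.6 FPKM and at 13.2, 19.2 and 13.7 FPKM (-1.62, SE 0.664). The groups did not overlap in these 3 genes, and Vim was far higher in vehicle replicate 1, beside its fibroblast and endothelial markers. Without that library the differences were -0.34 for Btf3, -0.27 for Pabpc1 and -0.85 for Vim.

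The mTOR pathway and the regulators of TOP messages showed no shared direction over all 6 libraries, with 10 of 20 lower, 10 higher and a median of -0.06. Every TMAO library was lower in 5 (17.5% of all tested genes) and higher in 3. At an unadjusted p under 0.05, 1 was lower (7.22% of all tested genes) and 1 higher. Without vehicle replicate 1, 14 of 20 were lower, against 54.6% of all tested genes. Tsc1, an inhibitor of mTOR, stood at 6.59, 8.83 and 7.91 FPKM in vehicle and at 9.604, 10.03 and 9.991 FPKM in TMAO, higher in every TMAO library (0.32, SE 0.122). Cnbp, which binds TOP messages, stood at 99.8, 79.5 and 83.4 FPKM and at 70.7, 70.1 and 64.5 FPKM (-0.35, SE 0.138). Myc, a transcription factor for ribosome genes, stood at 15.5, 5.05 and 2.58 FPKM and at 2.22, 2.27 and 1.19 FPKM (-1.32, SE 0.553). Both were lower in every TMAO library, and vehicle replicate 1 carried much of the difference of Myc, which was -0.71 without it.

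Mitochondrial ribosomal proteins, which build the separate ribosome of mitochondria, were lower in 56 of 78, against 53.2% of all tested genes. Their median log2 difference was -0.07, against -0.34 for the cytosolic genes and -0.03 over all tested genes. Of the 78, 15 had every TMAO library lower and 4 had every TMAO library higher, and 3 lower and 1 higher had an unadjusted p under 0.05. The 15 with every TMAO library lower are near the 17.5% of all tested genes, and the 3 lower ones are under the 7.22% at that p. Mrps6 stood at 24.96, 12.32 and 13.72 FPKM in vehicle and at 9.941, 7.960 and 10.46 FPKM in TMAO (-0.73, SE 0.272), and Mrps24 at 8.18, 6.53 and 5.47 FPKM and at 4.83, 4.71 and 4.58 FPKM (-0.42, SE 0.147). Mrpl48 stood at 3.87, 4.44 and 4.74 FPKM and at 5.81, 5.39 and 5.60 FPKM, higher in every TMAO library (0.31, SE 0.108). Without vehicle replicate 1 the differences were -0.43 for Mrps6, -0.29 for Mrps24 and 0.24 for Mrpl48. The difference between the cytosolic and the mitochondrial genes was not tested. By limma 0 genes of any of these lists passed an adjusted p of 0.05, and their smallest adjusted p was 0.404. Without vehicle replicate 1 the medians were -0.17 for biogenesis factors, -0.22 for initiation factors, -0.19 for the nascent chain complexes, -0.11 for elongation factors and other TOP messages, -0.07 for the mTOR list and -0.05 for mitochondrial ribosomal proteins.

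**Figure D5:**
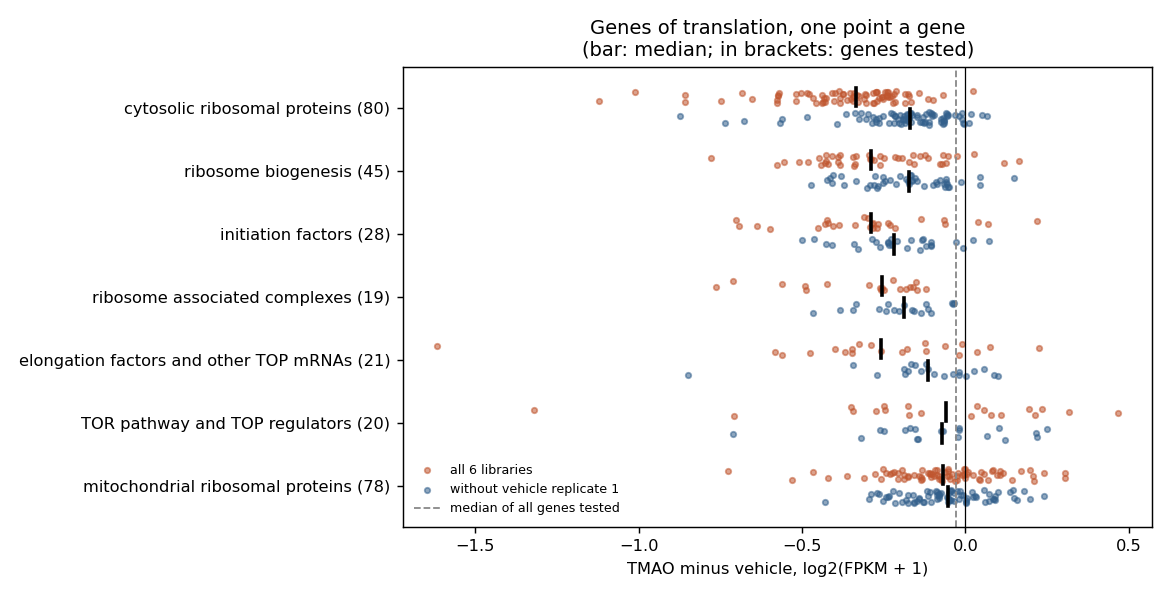
Difference between the TMAO and vehicle means in log2(FPKM + 1) for each tested gene of 7 groups of translation genes (orange, all 6 libraries; blue, without vehicle replicate 1; bar, median; dashed line, median of all tested genes). The cytosolic ribosomal proteins and the biogenesis and initiation factors lie mostly below 0, while the medians of the mitochondrial ribosomal proteins and the mTOR list lie nearer to the median of all genes.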

How the data were processed

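RNA sequencing values of 6 libraries, 3 of vehicle and 3 of TMAO, were analysed. Per the submitters' processing notes, cutadapt 1.9 trimmed the reads and the build was mm9. The aligner, quantifier and annotation were not given in the sources used here. The authors deposited FPKM per gene, with a ratio (fold) of TMAO over vehicle, its log2, a p-value and a q-value, per the file headers. Read counts were not used, so the depth behind a value is unknown and the number of libraries limits precision.

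FPKM were transformed to log2(FPKM + 1) and tested with limma 3.58.1 in R 4.3.3 (eBayes with trend and robust estimation, two-sided) on the 14206 genes that reached 1 FPKM in 3 or more of the 6 libraries, with Benjamini-Hochberg adjustment over all of them. The code was tested on simulated data. Coordinates and gene types come from GENCODE M21 (GRCm38) by gene ID, which matched 99.6% of IDs, promoters from RefSeq (GRCm38.p6). Copies were found with blastn 2.17.0 (coding sequences against GENCODE transcripts, at least 95% identity, at least 50% of the coding sequence and of the copy's transcript).

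Members and lists were chosen with earlier results of these data known. Values in every library were given for the 8 members of smallest p, the 5 of highest mean, stalk, 5S, Rps6, Rack1 and ubiquitin fusion genes, the 4 of smallest difference, any higher in TMAO, the paralogs, and 3 genes of smallest p per list. A gene that this rule names is not reported here. Alternatives covered pseudocount, filter, scaling, variance model, replicate block, threshold and leaving out each library. Summing copies was added after the data were seen. Replicate numbers were not treated as pairs in the main fit.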

Additional observations from a re-analysis of the deposited data

How the results depend on the processing

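Under all 18 alternatives 0 members passed an adjusted p of 0.05, nor at a threshold of 0.1. Over the 80 members tested (83 with no filter), annotated pseudogenes included, the count lower in TMAO was 71 to 81 and the median log2 difference -0.45 to -0.15. Over the 78 protein-coding members alone, copies summed without vehicle replicate 1 gave 69 and -0.14. Scalings moved the median of all genes by under 0.1, and the members' median was -0.23 with quantile normalization and -0.26 with median scaling. The 10 lower members at an unadjusted p under 0.05 became 5 with quantile normalization, 5 with median scaling and 6 with the replicate block. Leaving out single libraries gave 1 to 17 such members, 17 without vehicle replicate 1 and 4, 2 and 1 without TMAO replicates 1, 2 and 3. The 17 stand against 10.2% of all tested genes. Shares for the other alternatives are not given here, so their counts have no background beside them. Same-numbered libraries of the groups deviated together at -0.216, -0.0636 and -0.0153, and unlike-numbered ones at -0.266 to 0.244. With 3 libraries a group these values cannot show whether replicate numbers pair libraries. Of 46 named genes, 40 kept their direction throughout. Leaving out single libraries gave log2 differences of -0.144 to 0.0663 for Rpl14, -0.16 to 0.0123 for Rpl3, -0.188 to 0.0176 for Rpl36a and -0.0604 to 0.0859 for Rps14. In Rpl14, Rpl3 and Rpl36a the value above 0 was that without vehicle replicate 1. Rps14 was at -0.0604 without vehicle replicate 2 and at -0.0233 without TMAO replicate 1. With copies summed and without vehicle replicate 1, Rpl3 was at 0.0276, Rps19 at 0.115 and Rps28 at 0.484. Rpl14 was at 0.0328 with quantile normalization and 0.00475 with median scaling, and Rpl3 at 0.0129 with quantile normalization. The causes were not tested. Count tests were not run, as the table gives no counts, and depth could not be weighed.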
